A study of Mus musculus with 173 samples.

Results

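The genes described here are 32 transcripts of the exocrine pancreas and of the gut epithelium that were read in white adipose tissue around the intestine. They were taken by symbol from a list that names them as genes of these organs, and all 32 were found among the 38561 genes of the deposited table. The rule holds no measured value, but the list was chosen with earlier results of these data known. Of the 32 genes, 15 encode secreted enzymes or cofactors of the pancreatic acinar cell and 17 belong to enterocytes, goblet cells or the intestinal epithelium in general. Their level was followed in each library of this depot and then in the other 10 tissues of the same mice.

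Acinar cells make up most of the pancreas, and they secrete zymogens of proteases, lipases and amylases into the duct; their messages are very abundant in that cell. Enterocytes absorb fat and carry apolipoproteins, fatty acid binding proteins and brush border hydrolases, while goblet cells make mucin and lectins of the mucus layer. In the mouse the pancreas is not a compact organ but spreads in lobules through the fat of the mesentery, next to the intestine.

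Polyadenylated RNA was sequenced in 11 tissues of 16 C57BL/6 mice aged 6 months, all counted as separate animals, with 4 females and 4 males per genotype. Q175 mice were heterozygous for the Q175 knock-in allele of the Huntington's disease gene, with a CAG length of 175, and were housed with other heterozygous Q175 mice. The wild-type mice were labelled as housed with heterozygous Q20 mice and carry animal codes of that colony, although the design text calls them littermates, so genotype, housing and colony cannot be told apart. White adipose tissue around the intestine had 8 Q175 and 8 wild-type libraries, and animals are named here by genotype, sex and the replicate number of that tissue's labels, so that the same number in another tissue need not be the same mouse.

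Each of the 173 libraries summed to between 28 and 48 M (mega) estimated counts, and those of the intestinal depot to between 32.5 and 47.3 M. Values below are CPM, counts per M of the library total, unless FPKM, which also scales to transcript length, is named. A level of 3 counts, the floor used here, was worth between 0.0635 and 0.0922 CPM in this depot, and these limits cover counting error only. Xist and Ddx3y matched the labelled sex in 173 of 173 libraries. Huntingtin transcript does not separate the genotypes in this depot, with a median of 85.2 CPM (60.7 to 95.2) in Q175 libraries and 97.3 CPM (58.2 to 113) in wild-type libraries, so it checks no label here. The depot held adipocyte transcripts throughout, with a summed level of 5008 to 22467 CPM in Q175 libraries and 6173 to 26182 CPM in wild-type libraries. Lymphocyte genes were also high and uneven, at 27.1 to 3243 CPM in Q175 libraries and 165 to 2629 CPM in wild-type libraries. In bulk tissue fewer cells of a type and less RNA per cell cannot be told apart, and this holds for every level below.

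Promoters of the genes were compared because the same few libraries carried whole sets of them at once. Of the 32 genes, 27 matched a RefSeq promoter on GRCm38.p6, a window of 300 bases that ends shortly after the annotated start. The 4 windows below were picked because they hold motifs of the search, and they do not stand for all members. Pnlip, Apoa4 and Fabp2 held none of the 4 motifs marked below. Capitals mark CACCTG (an E-box) and TTTCCC on either strand in the pancreas genes Ctrb1, at chr8:111690961-111691260 on the minus strand, and Cela2a, at chr4:141825956-141826255 on the minus strand. They mark GTTAAT and TTTATG on either strand in the gut genes Fabp1, at chr6:71199629-71199928 on the plus strand, and Sis, at chr3:72967814-72968113 on the minus strand. The Ctrb1 window has TTTCCC and no CACCTG. It also holds GTTAAT and TTTATG, and the Cela2a window holds TTTATG, which are left in lower case there.
Ctrb1: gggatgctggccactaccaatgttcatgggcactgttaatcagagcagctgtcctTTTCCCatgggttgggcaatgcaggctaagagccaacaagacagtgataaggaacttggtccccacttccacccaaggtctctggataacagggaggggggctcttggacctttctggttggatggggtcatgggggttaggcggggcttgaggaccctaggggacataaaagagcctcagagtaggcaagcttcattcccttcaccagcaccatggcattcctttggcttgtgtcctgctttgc
Cela2a: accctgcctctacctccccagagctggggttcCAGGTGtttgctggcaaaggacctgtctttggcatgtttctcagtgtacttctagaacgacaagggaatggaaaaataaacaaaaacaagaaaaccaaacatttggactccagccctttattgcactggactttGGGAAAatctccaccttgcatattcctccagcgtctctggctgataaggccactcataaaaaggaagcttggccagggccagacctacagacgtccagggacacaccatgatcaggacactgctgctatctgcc
Fabp1: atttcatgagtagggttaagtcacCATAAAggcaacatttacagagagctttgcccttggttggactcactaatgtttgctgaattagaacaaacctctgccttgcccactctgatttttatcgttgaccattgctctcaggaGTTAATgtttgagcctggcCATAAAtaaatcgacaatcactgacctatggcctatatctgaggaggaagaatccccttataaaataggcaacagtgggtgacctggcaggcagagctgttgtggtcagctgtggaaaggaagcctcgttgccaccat
Sis: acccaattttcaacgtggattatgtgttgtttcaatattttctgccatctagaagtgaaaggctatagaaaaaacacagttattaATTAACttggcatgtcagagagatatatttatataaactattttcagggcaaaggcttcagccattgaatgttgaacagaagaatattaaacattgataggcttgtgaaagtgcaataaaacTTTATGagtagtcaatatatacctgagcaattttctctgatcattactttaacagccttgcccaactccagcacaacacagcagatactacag

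CACCTG stood in 8 of the 13 matched pancreas promoters (61.5%) and in 4 of the 14 matched gut promoters (28.6%), while 22.6% of all 27025 genes had it in a window of the same length. CACCTG and TTTCCC together stood in 4 of 13 pancreas promoters (30.8%), those of Cel, Cela1, Cela2a and Prss2. The pair stood in 1 of 14 gut promoters (7.14%), that of Reg3b, and in 5.65% of all promoters. TTTATG, the hexamer shown in the intestinal windows, was found in 4 of 14 gut promoters (28.6%) and in 5 of 13 pancreas promoters (38.5%), against 13.6% of all. GTTAAT was found in 2 of 14 gut promoters (14.3%) and in 3 of 13 pancreas promoters (23.1%), against 8.24% of all. TTTCCC alone was found in 7 of 13 pancreas promoters (53.8%) and 3 of 14 gut promoters (21.4%), against 27.9% of all, and AGATAA in 4 of 13 (30.8%) and 2 of 14 (14.3%), against 12.7%. All were read on both strands. These are matches of letters in a short window, and no binding was measured. In the printed windows no marked motif overlaps another.

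The 32 genes were low in most libraries of the intestinal depot and very high in 3 of them, all from wild-type mice. The summed level of the 15 pancreas genes was between 5.04 and 101 CPM in the 8 Q175 libraries, with a median of 11.4. In the 8 wild-type libraries it lay between 6.09 and 28456 CPM, with a median of 68.8. The summed level of the 17 gut genes was between 31.9 and 120.0 CPM in Q175 libraries, with a median of 37.8, and between 36.7 and 18226 CPM in wild-type libraries, with a median of 47.03. The ranges of the genotypes overlapped for both sums, and without the 3 libraries the wild-type medians were 15.5 CPM for the pancreas genes and 40.5 CPM for the gut genes.

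The 3 libraries did not carry the same mixture. Wild-type female 2 held both sets, with 28456 CPM of pancreas transcripts, or 2.85% of its counts, and 18226 CPM of gut transcripts, or 1.82%. Wild-type male 1 held 7307 CPM of pancreas transcripts (0.731%) and 220.3 CPM of gut transcripts. Wild-type male 4 held 109.9 CPM of pancreas transcripts and 12948 CPM of gut transcripts (1.29%). Thus 1 library was high in both, 1 in the pancreas genes and 1 in the gut genes. Lower but raised sums were seen outside these 3: Q175 male 1 had 101 CPM and wild-type male 2 had 290.3 CPM of pancreas transcripts, and Q175 female 3 had 120.0 CPM of gut transcripts.

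**Figure D1:**
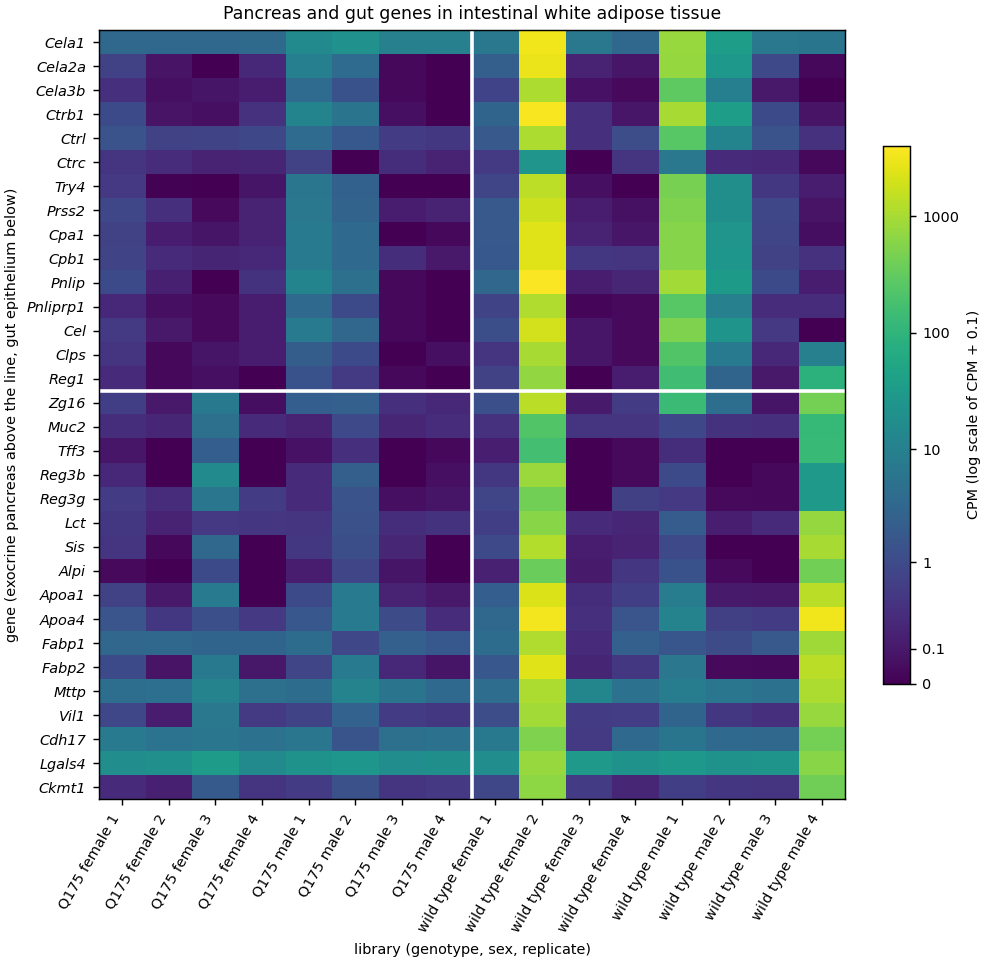
Level of each of the 32 genes (rows; pancreas genes above, gut genes below) in each of the 16 libraries of the intestinal depot (columns; 8 Q175 on the left, 8 wild type on the right), coloured by CPM on a log scale. Wild-type female 2 is high in both blocks, wild-type male 1 in the pancreas block and wild-type male 4 in the gut block.

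Protease precursors were 10 of the 15 pancreas genes. Ctrb1 encodes chymotrypsinogen B, a zymogen that cuts after aromatic residues once activated. It had 0, 0.0546, 0.0569, 0.0773, 0.350, 0.991, 5.83 and 11.7 CPM in the 8 Q175 libraries, against 0.0724, 0.0922, 0.319, 0.972, 2.98, 37.3, 1016 and 3643 CPM in the 8 wild-type libraries. The groups overlapped, and 3 Q175 libraries and no wild-type library lay under the floor of 3 counts. Cela2a, a chymotrypsin-like elastase, had a median of 0.150 CPM in Q175 libraries (0 to 9.79) and of 1.68 CPM in wild-type libraries (0.0242 to 2933). Cela1, another elastase, never reached 0: its median was 6.93 CPM in Q175 libraries (3.32 to 21.1) and 6.91 CPM in wild-type libraries (3.38 to 3132). The medians of Cela1 in the genotypes were thus nearly equal.

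Pnlip, the triglyceride lipase of pancreatic juice, had a median of 0.265 CPM in Q175 libraries (0 to 11.9) and of 2.06 CPM in wild-type libraries (0.121 to 3822). Wild-type male 1 had 934 CPM of Pnlip, 777 CPM of Cela1 and 752 CPM of Cela2a. On the FPKM scale, which allows genes to be compared, wild-type female 2 had 4107 FPKM of Ctrb1, 2839 FPKM of Cela1, 2749 FPKM of Cela2a and 2574 FPKM of Pnlip. Clps, the cofactor that holds pancreatic lipase at the fat droplet, and Reg1, a secreted lectin of acinar cells, reached 1005 and 719 CPM in that library. Both were also present in wild-type male 1, at 227 CPM for Clps and 157 CPM for Reg1.

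The other 9 pancreas genes had their highest Q175 value in the same library, Q175 male 1, and their highest wild-type values in female 2 and male 1. The carboxypeptidases Cpa1 and Cpb1 had 7.57 and 8.26 CPM in Q175 male 1, against 2414 and 2415 CPM in wild-type female 2 and 579 and 591 CPM in wild-type male 1. The trypsinogens Try4 and Prss2 had 6.28 and 6.75 CPM in Q175 male 1, against 1382 and 1787 CPM in wild-type female 2. The chymotrypsin-like Ctrl and the elastase Cela3b had 4.04 and 4.01 CPM in Q175 male 1, against 1064 and 1065 CPM in wild-type female 2. Cel, the bile salt-activated lipase, and Pnliprp1, a lipase relative, thus completed a set that moved as a block, with 7.57 and 3.69 CPM in Q175 male 1, against 1914 and 1137 CPM in wild-type female 2. Ctrc, chymotrypsin C, which trims other zymogens, was the weakest, with 0.665 CPM in Q175 male 1, against 24.8 CPM in wild-type female 2 and 6.77 CPM in wild-type male 1. In wild-type male 4, Cela3b and Cel were at 0 and Cpa1 was at 0.0482 CPM.

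Some of these genes have near copies. The Try4 transcript shares 97.1% of 801 aligned bases with Try5 and 91.4% of 753 with Prss2, and a stretch of 292 bases of Cela3b is 95.2% identical to Cela3a. No source used here says how reads that fit several copies were counted, so the split among Try4, Try5 and Prss2 and between Cela3a and Cela3b is uncertain.

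By mean FPKM over the 16 libraries, which wild-type female 2 and male 4 carry, the gut genes were led by genes of fat absorption; by median Lgals4 was the highest of those written out here, at 21.3 FPKM, against 0.767 FPKM for Apoa4. Apoa4, an apolipoprotein of chylomicrons, had 0.291, 0.462, 0.475, 1.01, 1.22, 1.56, 1.71 and 7.85 CPM in the 8 Q175 libraries, against 0.319, 0.551, 0.659, 1.57, 3.48, 11.2, 3177 and 3292 CPM in the 8 wild-type libraries. The ranges overlapped, and both values over 1000 CPM were from wild-type female 2 and wild-type male 4. Apoa1, the main apolipoprotein of high-density lipoprotein, had a median of 0.456 CPM in Q175 libraries (0 to 8.06) and of 1.44 CPM in wild-type libraries (0.105 to 2325). Fabp2, the intestinal fatty acid binding protein, had a median of 0.527 CPM in Q175 libraries (0.0773 to 7.54) and of 1.08 CPM in wild-type libraries (0.0263 to 2391). Fabp1, its liver-type relative, had a median of 2.96 CPM in Q175 libraries (0.868 to 4.15) and of 2.18 CPM in wild-type libraries (0.250 to 1139.8). Of these 4, Fabp1 was the one with the higher median in Q175 libraries; that of Apoa4 was 1.12 CPM in Q175 libraries and 2.53 CPM in wild-type libraries. Mttp, which loads lipid onto apolipoprotein B, had a median of 4.88 CPM in Q175 libraries (3.65 to 11.5) and of 7.45 CPM in wild-type libraries (4.32 to 1083).

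Brush border and junction genes were high in the same pair of wild-type libraries. Sis, sucrase-isomaltase, reached 1193 CPM in wild-type female 2 and 980.2 CPM in wild-type male 4, and Lct, lactase, reached 607 and 748 CPM in those libraries. Cdh17, the intestinal cadherin, was detected in every library, with a median of 5.34 CPM in Q175 libraries (1.49 to 7.48) and of 4.82 CPM in wild-type libraries (0.501 to 507). The lowest Cdh17 and Fabp1 values of each genotype fell on the same mice, Q175 male 2 and wild-type female 3. Those mice also had low lymphocyte sums, at 27.1 CPM in Q175 male 2 and 232 CPM in wild-type female 3, with 165 CPM in wild-type male 4 as the lowest of its genotype. The part of lymphoid tissue in Cdh17 and Fabp1 was not tested. Lgals4, a galectin of the epithelial surface, had a median of 19.8 CPM in Q175 libraries (16 to 33.3) and of 26.3 CPM in wild-type libraries (17.7 to 790.1). Villin (Vil1), the bundler of microvillar actin, had 911 CPM in wild-type female 2 and 781 CPM in wild-type male 4, and the mitochondrial creatine kinase Ckmt1 had 669 and 395 CPM. Alpi, the intestinal alkaline phosphatase, was one of the genes higher in male 4, with 359 CPM in wild-type female 2 and 423 CPM in wild-type male 4. In Q175 libraries these 3 reached at most 6.92, 1.88 and 0.996 CPM, each in female 3.

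Goblet and defence genes told the 3 libraries apart. Muc2, the gel-forming mucin, had 225 CPM in wild-type female 2 and 121 CPM in wild-type male 4, and Tff3, a goblet-cell peptide, had 169 CPM in wild-type female 2 and 133 CPM in wild-type male 4. Reg3b and Reg3g, antimicrobial lectins, had 809 and 421 CPM in wild-type female 2 but 29 and 29.3 CPM in wild-type male 4. The ratio of Reg3b to Fabp2 was 0.338 in wild-type female 2, 0.0218 in wild-type male 4 and 2.08 in Q175 female 3. In Q175 female 3, the library with the highest gut sum of its genotype, Reg3b had 15.1 CPM, Apoa1 8.06, Fabp2 7.29 and Zg16 7.17 CPM, while Apoa4 was at 1.22 CPM. That library also had 7.86 CPM of Fabp6, the ileal bile acid binding protein.

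Zg16 encodes a lectin of pancreatic zymogen granules that goblet cells make too, and it had 1353 CPM in wild-type female 2, 438 CPM in wild-type male 4 and 139 CPM in wild-type male 1. In wild-type male 1 it made up 62.9% of the summed gut level. Its ratio to Muc2 was 154 there, against 6.02 in wild-type female 2 and 3.63 in wild-type male 4. Its ratio to Ctrb1 was 0.136 in wild-type male 1, 0.123 in wild-type male 2 and 0.193 in Q175 male 1, and 0.371 in wild-type female 2. Most of the gut sum of wild-type male 1 was therefore a gene that acinar cells share.

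Within the pancreas set most genes kept similar shares in 8 of the 9 libraries where the set was highest. In any tissue, 9 libraries had at least 100 CPM of pancreas transcripts. One of them, wild-type male 4 of the intestinal depot, held 92.3 CPM of Reg1, 10.2 CPM of Clps and little else of the set. In the other 8 libraries, Ctrb1 made up 11.6 to 15% of the sum. Pnlip made up 10.4 to 15%, Cela1 10.4 to 17.8% and Cela2a 9.67 to 11.4%. Cpa1 made up 7.48 to 8.50%, Cpb1 6.91 to 9.70% and Prss2 6.17 to 7.98%. These shares held while the sum itself ran from 101 to 28456 CPM. Cel, at 3.42 to 8.27%, Clps, at 1.89 to 4.23%, Reg1, at 0.980 to 2.53%, and Ctrc, at 0.0162 to 0.657%, varied more. Q175 male 2 of the intestinal depot, under that limit with a sum of 57.4 CPM, had other shares. Cela1 made up 36.7% there, Pnlip 8.50% and Cela2a 6.95%. Between the 2 libraries that held the gut set some shares were close and others not: Apoa4 made up 18.1% of the gut sum in wild-type female 2 and 24.5% in wild-type male 4, Fabp1 6.25 and 6.78%, Sis 6.55 and 7.57%, but Reg3b 4.44 and 0.22%.

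**Figure D2:**
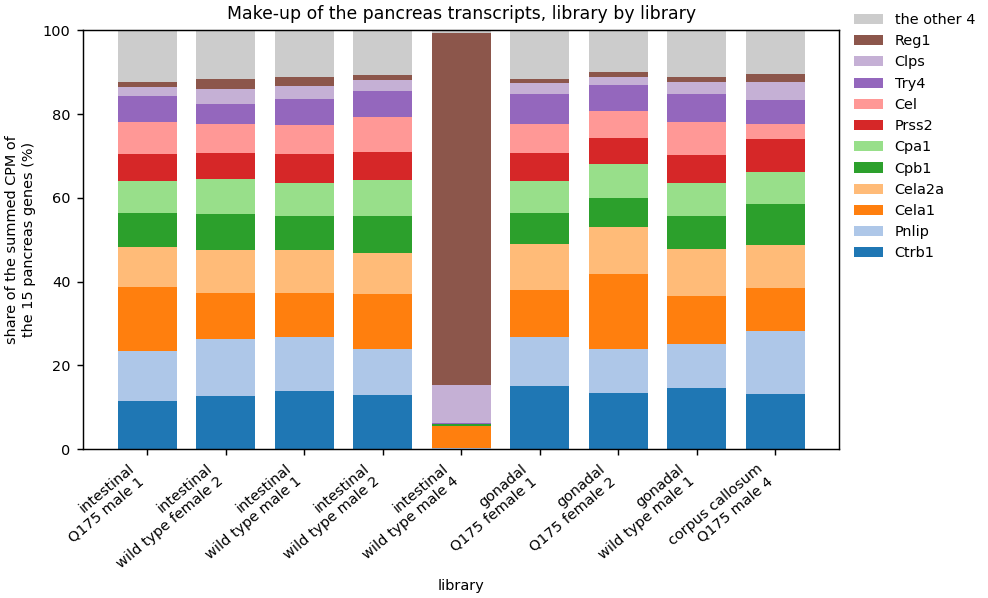
Share of each gene in the summed level of the 15 pancreas genes, in percent, for 5 libraries of the intestinal depot, 3 of the gonadal depot and 1 of the corpus callosum, each bar summing to 100%. The Ctrb1 segment spans 11.6 to 15% in 8 of them, and wild-type male 4 of the intestinal depot is the bar that differs.

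Other genes of the same cells were read from lists beside the 32. A list of 25 further acinar genes, which includes the amylases, summed to 23125 CPM in wild-type female 2 and 5156 CPM in wild-type male 1, with medians of 49.1 CPM in Q175 libraries and 149 CPM in wild-type libraries. Amy2a5, a pancreatic amylase, alone had 18132 CPM (1.81% of counts) in wild-type female 2 and 4014 CPM (0.401%) in wild-type male 1. In wild-type male 4 that list summed to 636 CPM, of which 487 CPM was Dmbt1, a mucosal scavenger protein that intestinal epithelium expresses too. Further enterocyte genes summed to 13459 CPM in wild-type female 2 and 9990 CPM in wild-type male 4, with medians of 584 CPM in Q175 libraries and 690.0 CPM in wild-type libraries. Acinar transcripts thus followed wild-type female 2 and male 1, and enterocyte transcripts wild-type female 2 and male 4.

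Endocrine and gastric genes reached far lower sums than acinar and enterocyte genes, but they too were highest in some of the 3 libraries. Islet genes summed to at most 0.582 CPM in Q175 libraries, against 13.3 CPM in wild-type female 2, 11.3 CPM in wild-type male 4 and 0.355 CPM in wild-type male 1. Most of this was Sst and Gcg, hormones that enteroendocrine cells make too, while the insulin gene Ins1 was at 0 in all 16 and Ins2 at no more than 0.0289 CPM. Stomach genes summed to at most 1.79 CPM in Q175 libraries, against 83.6 CPM in wild-type female 2 and 17.6 CPM in wild-type male 1. Of these, Tff2 had 80.9 CPM in wild-type female 2 and 16.5 CPM in wild-type male 1, and Gkn1 and Gkn2 were at 0. Duct genes summed to 299 CPM in wild-type female 2, 11.2 in wild-type male 1 and 246 in wild-type male 4, with medians of 15 CPM in Q175 libraries and 15.3 CPM in wild-type libraries. Keratins and adhesion genes of simple epithelium, Krt8 and Epcam among them, summed to 1505, 20.04 and 1105 CPM in those 3 libraries. Smooth muscle genes had a median of 1006 CPM in Q175 libraries and also of 1006 CPM in wild-type libraries. Their highest sums were 1753 CPM in wild-type male 4 and 1655 CPM in wild-type female 2, the libraries high in gut genes. Wild-type male 1 had 486 CPM, and the highest Q175 library had 1541 CPM.

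The remaining lists give the setting. Goblet, Paneth and enteroendocrine genes had medians of 159 CPM in Q175 libraries and 122 CPM in wild-type libraries, with 1967 CPM in wild-type female 2 and 2639 CPM in wild-type male 4. Genes of ileum and colon had medians of 13.2 CPM in Q175 libraries and 25.4 CPM in wild-type libraries, with 203 CPM in wild-type female 2 and 132 CPM in wild-type male 4. The list of mesothelial genes had medians of 125 CPM in Q175 libraries and 119 CPM in wild-type libraries. Its sum was 989 CPM in wild-type female 2 and 807 CPM in wild-type male 4, the libraries highest in gut transcripts. Wild-type female 3, with 46.5 CPM of gut transcripts, followed at 667 CPM. The list includes Krt8, which is also in the simple epithelium list, and Krt19, which is also in the duct list. The part of these keratins in the sums was not tested. Genes of the liver list, which fat partly shares, had medians of 1264 CPM in Q175 libraries and 2172 CPM in wild-type libraries. Plasma cell genes had medians of 1027 CPM in Q175 libraries and 754 CPM in wild-type libraries, and brown adipocyte genes of 20.4 CPM in Q175 libraries and 29.3 CPM in wild-type libraries. The adipocyte sum was 13392 CPM in wild-type female 2, 10992 CPM in wild-type male 1 and 19248 CPM in wild-type male 4, within the range of the other libraries. The part of epithelial, mesothelial and lymphoid content in the levels of the 32 genes was not tested.

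By likeness over the 16 libraries, on log2(CPM + 1), the genes closest to the pancreas sum were Rnase1 (Pearson r = 0.983), Amy2a4 (0.958), Try5 (0.958), Amy2a3 (0.956), Amy2a2 (0.950), Amy2a5 (0.949), Sycn (0.949) and Pnliprp2 (0.947). Among those closest to the gut sum were Clca4b (0.993), Slc39a5 (0.993), Apob (0.992), Npc1l1 (0.992), Mep1b (0.991), Mgam (0.991) and Slc15a1 (0.991). These coefficients rest largely on the few high libraries and are given as a description.

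Each library name of this depot holds a running number and a code of L with a digit, which no source explains. In the order of the running number, the first 9 libraries of this depot carried L2 or L3 and the last 7 carried L4 or L5. Without wild-type female 2 and male 1, Ctrb1 was at 0.991 to 11.7 CPM in the 3 other L2 libraries (median 2.98) and at 0.0773 to 37.3 CPM in the 4 other L3 libraries (median 3.40). It was at 0.0546 to 0.319 CPM in the 5 L4 libraries and at 0 to 0.350 CPM in the 2 L5 libraries. Apart from Q175 female 2, at 0.0773 CPM, the L2 and L3 libraries were all higher in Ctrb1 than the L4 and L5 libraries. L2 and L3 held 4 Q175 and 5 wild-type libraries, and L4 and L5 held 4 Q175 and 3 wild-type libraries. The part of the code or the number in the low values was not tested. Apoa4 lay between 0.291 and 3.48 CPM in 12 of the 16 libraries, and wild-type male 4, the later of the 2 libraries high in gut genes, carried L4.

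**Figure D3:**
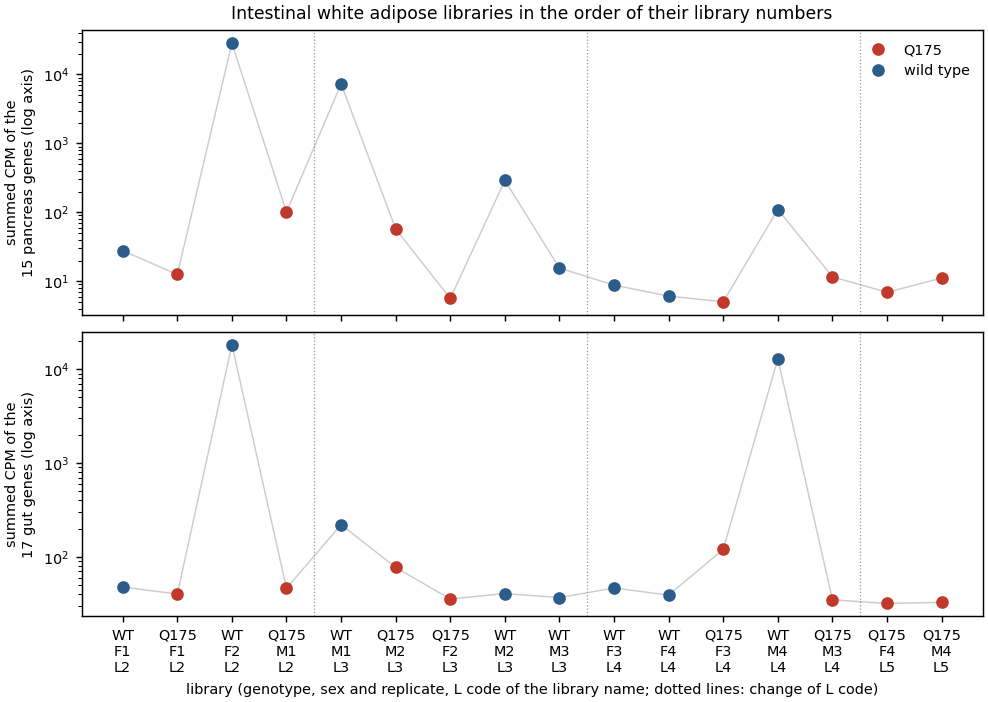
Summed CPM (log axis) of the 15 pancreas genes and of the 17 gut genes in the 16 libraries of the intestinal depot, in the order of the running number in the library name, with the L code under each. Libraries 3 and 5 (wild-type female 2, wild-type male 1) are the highest in pancreas genes, at 28456 and 7307 CPM, and the later ones lie at 5.04 to 109.9 CPM from number 9 on.

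The study compares Q175 with wild-type mice, and in this depot no gene passed the test. Of the 32 genes 28 had enough counts to be tested, and Cela3b, Tff3, Reg3b and Alpi did not. edgeR's quasi-likelihood test with sex as a term called 0 of the 28 at an adjusted p under 0.05, where it called 0 of 16686 genes, or 0%. At an unadjusted p under 0.05 stood 28 of the 28, against 1297 of all genes tested (7.77%). All 28 had a fitted log2 fold change below 0, against 54.6% of all genes, and their median was -7.99, against -0.03 over all genes. The smallest adjusted p of a member was 0.517 in edgeR.

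These fitted values moved with the 3 high libraries, all of them wild type. A gene that enters the test through those libraries is bound to lie below 0, so the counts above are given as a description. For Ctrb1 the log2 fold change of Q175 against wild type was -8.62 ± 2.88 (SE) with 8 libraries per genotype, and without the 3 libraries it was -1.93 ± 1.26. For Apoa4 it was -9.23 ± 2.43, and 0.19 without them. Fabp2 turned round likewise, with -7.92 ± 2.55 and then 2.62 ± 1.58, as did Apoa1, with -7.87 ± 2.51 and then 2.13, and Fabp1, with -6.89 ± 1.86 and then 0.50. Without the 3 libraries 29 members were tested, 0 were called, 0 had an unadjusted p under 0.05 (332 genes in all, 1.96%), and the median was -0.17. In that smaller comparison all 15 pancreas genes were still below 0 and 12 of the 29 members, all gut genes, were above 0, against 52.8% of all genes below 0. Genes of a set rose in the same few libraries, so these signs are not independent. The 3 libraries were left out by their level of these same genes, and all were wild type, while every Q175 library stayed. An upward shift of the fitted values follows from that choice. The values and counts without the 3 libraries are therefore given as a description. Of the wild-type libraries left, male 2 had 290.3 CPM of pancreas transcripts, against a median of 15.5. Cela1 had medians of 6.93 CPM in Q175 and 6.83 CPM in these wild-type libraries. Fabp2 had 7.54 CPM in Q175 male 2 and 7.29 CPM in Q175 female 3, against a Q175 median of 0.527. After adjustment over all genes, edgeR thus called no member in either comparison.

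Single libraries moved these numbers as well. Without wild-type female 2 alone, 10 of 28 members had an unadjusted p under 0.05 (2.69% of all genes) and the median was -4.28. Without wild-type male 1 alone there were 17 of 28 (10.9%), and without wild-type male 4 alone 16 of 29 (2.41%). DESeq2 gave a p-value to 2 of the 28, and it called both lower in Q175 mice: Reg1 had a log2 fold change of -9.25 ± 1.71 (adjusted p = 0.0003) and Zg16 of -7.32 ± 1.44 (adjusted p = 0.0011). It called 10 of 16342 genes in all (0.0612%). Both genes were high in the 3 libraries alone: outside them Reg1 lay at 0 to 1.34 CPM in Q175 libraries and 0 to 3.004 CPM in wild-type libraries, and Zg16 at 0.05 to 7.17 CPM in Q175 libraries and 0.0788 to 4.59 CPM in wild-type libraries. These calls thus rest on the same 3 libraries as the fitted values of edgeR. On simulated counts with the spread of this depot, edgeR recovered 45 of 100 genes changed 2-fold.

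**Figure D4:**
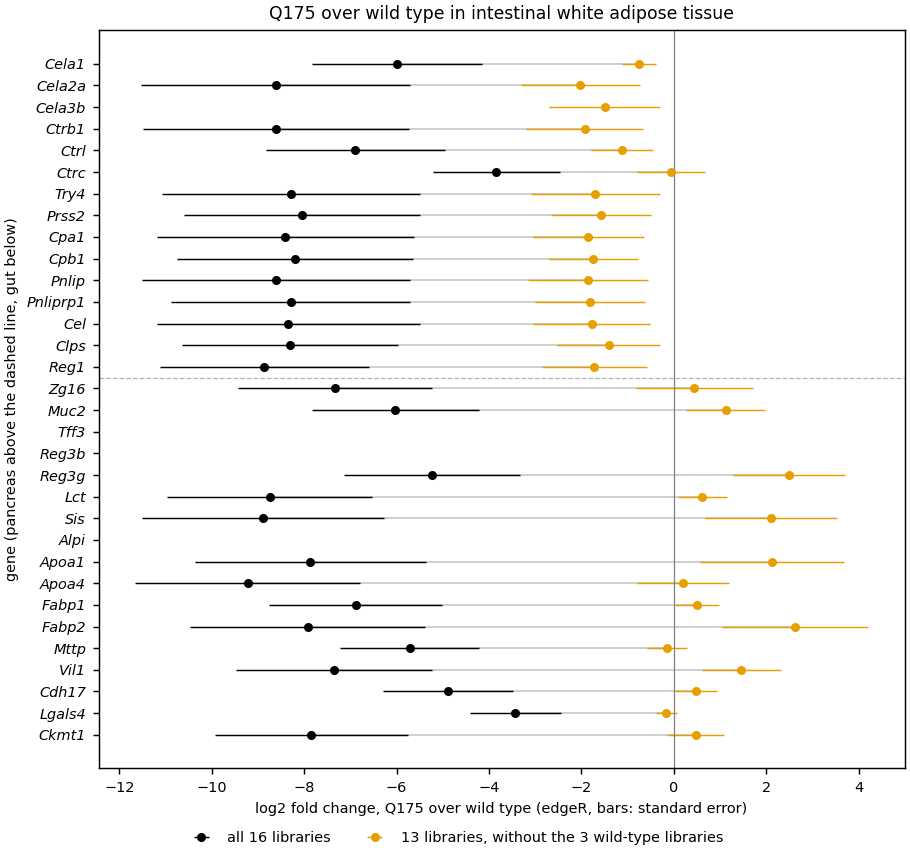
Fitted log2 fold change, Q175 over wild type, of each gene in the intestinal depot with its standard error, from all 16 libraries and from the 13 without wild-type female 2, male 1 and male 4. All 28 tested genes lie below 0 with 16 libraries, and 12 of 29 lie above 0 with 13.

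Sex gave no call either. Between female and male mice, edgeR called 0 of 28 members at an adjusted p under 0.05, where 27 of 16686 genes were called (0.162%), and 0 members had an unadjusted p under 0.05 (6.52% of all genes). Without the 3 libraries it again called 0 (0.106% of all genes), with 14 of 29 at an unadjusted p under 0.05 (7.66%). These 14 were pancreas genes with a fitted log2 fold change, female over male, below 0. Among them were Cela1, with a log2 fold change of -2.15 (edgeR adjusted p = 0.08), and Ctrb1, with -3.96 (adjusted p = 0.49). The 3 libraries were left out by their level of these same genes, and wild-type female 2 was the female with the highest pancreas sum. The highest sums left were from males: 290.3 CPM in wild-type male 2, 101 CPM in Q175 male 1 and 57.4 CPM in Q175 male 2. The direction rests on these few libraries, so the count is given as a description. The sex difference in the Q175 response, tested as an interaction, was called by edgeR for 0 of 28 members (0% of 16686 genes), with 0 at an unadjusted p under 0.05 (1.46% of all genes). DESeq2 gave a p-value to 2 members in each of these tests and called 0.

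Against the other adipose depots of the same mice, the share of members called higher was near that of all genes, so the counts called higher say nothing particular about them. With all libraries none were called lower, and the share called in either direction was under that of all genes. Set against gonadal white adipose, 5 of the 13 members tested were called higher by edgeR over 15 mice with the animal as a block and none lower, where 76.1% of all genes were called and 35.4% were higher. They were Cdh17, with a log2 fold change of 5.41 ± 1.11 (adjusted p = 0.0003), Zg16, with 3.91 ± 1.69 (adjusted p = 0.0457), Apoa1, with 2.98 ± 1.30 (adjusted p = 0.0470), and Apoa4 and Fabp1. Apoa4 had a median of 1.39 CPM in the intestinal depot (0.291 to 3292) and of 0 in the gonadal depot (0 to 0.323). Fabp1 had a median of 2.71 CPM in the intestinal depot (0.250 to 1139.8) and at most 0.208 CPM in the gonadal depot. Cdh17 had a median of 5.34 CPM in the intestinal depot (0.501 to 507) and of 0.0776 CPM in the gonadal depot, where 1 library, Q175 male 2, reached 15 CPM.

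Without the 3 high libraries, 3 of 10 members were called higher than in gonadal fat, and these were Apoa4, Fabp1 and Cdh17, the last with 4.59. In that comparison Cela1, with -1.10, Mttp, with -0.59, and Lgals4, with -0.47, were lower around the intestine (75.5% of genes called). Leaving out 1 mouse ended the call of Zg16 (2.75 to 4.16), except where that mouse was Q175 female 2 or wild-type male 3 or the gene was not tested. It ended the call of Apoa1 (2.45 to 3.17), except without Q175 female 2, Q175 male 3 or wild-type female 2, male 2 or male 3.

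Set against brown adipose in 16 mice, 5 of the 10 members tested were higher, 3 gut and 2 pancreas genes, and none lower, where 82.1% of all genes were called and 45.1% were higher. Ctrl had a log2 fold change of 2.43 ± 0.88 (edgeR adjusted p = 0.0167) and Cpb1 of 4.61 ± 1.31 (adjusted p = 0.0035). Apoa4, Fabp1 and Cdh17 had no brown library at 3 counts or more. Against the highest floor of those libraries, 0.0804 CPM per library, their medians around the intestine were at least 17.3-fold, 33.7-fold and 66.4-fold higher. Without the 3 high libraries Apoa4 and Cdh17 were called higher again, with Cela1 (0.83) and Ctrl (1.59), while Muc2 (-1.22), Vil1 (-1.16) and Lgals4 (-1.09) were lower around the intestine (82.2% of genes called).

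Outside the intestinal depot the most specific genes were close to 0. Apoa4 reached 1 CPM in 0 of the other 157 libraries, stood at 0 in 142 of them and was highest in the heart of Q175 male 4, at 0.912 CPM. Ctrb1 stood at 0 in 117 of the 157 and reached 1 CPM in 10, from 8 mice. The highest were in gonadal fat, with 43.5 CPM in Q175 female 1 and 13.9 CPM in Q175 female 2, against 88.9 CPM in wild-type male 1. Corpus callosum, a fibre tract of the brain, had 25.3 CPM in Q175 male 4, against 3.25 CPM in wild-type female 4 and 1.26 CPM in wild-type male 4. Brown fat had 2.64 CPM in Q175 male 3 and 1.22 CPM in Q175 female 3, against 1.10 CPM in wild-type male 2, and the heart of Q175 male 4 had 1.05 CPM. Both genotypes were thus among the 10, and no tissue had more than 3.

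**Figure D5:**
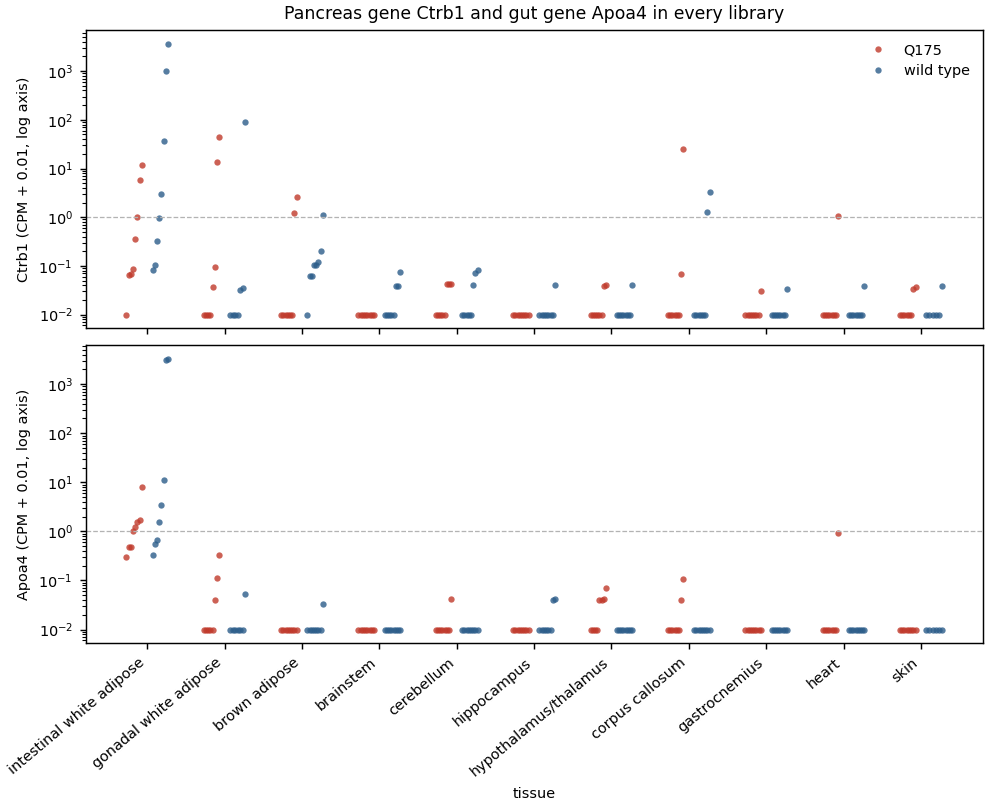
Level of Ctrb1 and of Apoa4 (CPM + 0.01, log axis) in every library of the 11 tissues, Q175 to the left of wild type within each tissue, with a dashed line at 1 CPM. Ctrb1 passes the line in 10 libraries outside the intestinal depot and Apoa4 in 0.

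The 10 libraries were also set beside their mouse and their order. The summed pancreas level was 289 and 103 CPM in the gonadal libraries of Q175 females 1 and 2, against 613 CPM in that of wild-type male 1, and 192 CPM in the corpus callosum of Q175 male 4. The 3 gonadal libraries carried the running numbers ranked 1, 2 and 3 within that tissue, and the 3 corpus callosum libraries those ranked 14, 15 and 16, while the 3 of brown fat were ranked 5, 8 and 10 and that of heart 16. By the animal code in the library name, the mouse highest in Ctrb1 around the intestine, wild-type female 2, gave none of the 10. Of the 10, 6 came from mice among the 5 highest there, and 7 came from 5 mice among the 6 highest. The other 3 did not: the gonadal libraries of Q175 females 1 and 2 came from mice ranked 14 and 12 around the intestine, with 0.0569 and 0.0773 CPM there, and the brown fat library of Q175 female 3 from the mouse ranked 9. The corpus callosum library of Q175 male 4 and the brown fat library of Q175 male 3 came from the mouse with 11.7 CPM there, and the gonadal library of wild-type male 1 from the mouse with 37.3 CPM. The ratio of Zg16 to Ctrb1 was 0.114, 0.112 and 0.1 in the 3 gonadal libraries and 0.143 in the highest corpus callosum library, close to 0.136 in the intestinal library of wild-type male 1. The part of mouse, running number or code in these levels was not tested.

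Of the 32 genes 7 had a median of at least 1 CPM in some other tissue. By length-scaled level, Ckmt1 had a median of 199 FPKM in brainstem, Lgals4 47.3 in heart, Cela1 10.6 in gonadal fat, Lct 7.04 in hippocampus and Mttp 6.64 in hypothalamus/thalamus. Pnlip, with 0.759 FPKM in corpus callosum, and Vil1, with 0.631 FPKM in hypothalamus/thalamus, were the weakest. The other 25 members stayed under a median of 1 CPM in all 10 tissues.

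The Q175 comparison called 5 differences among these genes in the other tissues. In the hippocampus Lct was lower, with 29.2 to 42.9 CPM in Q175 libraries (median 35.1) against 44.1 to 62.9 CPM in wild-type libraries (median 56.5). The groups did not overlap, and the log2 fold change was -0.67 ± 0.08 (edgeR adjusted p = 0.0002). It was the only call among 8 members tested there, where 4.56% of genes were called and 2.6% were lower. In the skin Ckmt1 was higher, with 203 to 259 CPM in Q175 libraries (median 233) against 136 to 185 CPM in wild-type libraries (median 167), again without overlap. Its log2 fold change was 0.46 ± 0.08 (edgeR adjusted p = 0.0127), the only call among 7 members, where 6.53% of genes were called and 2.5% were higher.

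In gonadal fat Lgals4 was lower, with 18.1 to 30.9 CPM in Q175 libraries (median 23.5) against 16.6 to 46.1 CPM in wild-type libraries (median 37.5), and the ranges overlapped. Its log2 fold change was -0.64 ± 0.15 (edgeR adjusted p = 0.0069), the only call among 7 members, where 32.1% of genes were called and 16.7% were lower. With the L code as a term it was -0.49 and no longer called (edgeR adjusted p = 0.242). Code and genotype largely go together in this depot, where every L1 library was wild type and most L2 libraries were Q175. That fit can therefore hardly tell them apart. Without the 3 gonadal libraries highest in pancreas transcripts, Lgals4 remained at -0.64 (edgeR adjusted p = 0.0231) and Ctrl was lower too, with -0.86 ± 0.22 (adjusted p = 0.0174), where 27.2% of genes were called. Those 3 libraries were left out by their level of pancreas genes, Ctrl among them. Ctrl had 12.7 and 4.25 CPM in those of Q175 females 1 and 2, and 26.5 CPM in that of wild-type male 1. Its call is therefore given as a description.

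In the cerebellum Cela1 was lower, with 0.367 to 0.997 CPM in Q175 libraries (median 0.604) against 0.624 to 1.32 CPM in wild-type libraries (median 1.03). Its log2 fold change was -0.66 ± 0.21 (edgeR adjusted p = 0.0338). Lgals4 was lower there too, with 2.27 to 3.02 CPM in Q175 libraries (median 2.39) against 2.75 to 3.03 CPM in wild-type libraries (median 3.0), a log2 fold change of -0.23 ± 0.08 (edgeR adjusted p = 0.0478). These were 2 of 7 members, where 16.1% of genes were called and 8.11% were lower, and the ranges overlapped for both genes. Leaving out any 1 of 10 libraries ended the Cela1 call, with edgeR adjusted p-values of 0.053 to 0.071; these were females 2, 3 and 4 and males 2 and 4 of each genotype. Leaving out any 1 library but Q175 female 1, Q175 male 3 or wild-type female 1 ended the Lgals4 call.

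In the other tissues edgeR called none of the members tested: 0 of 8 in brainstem (3.07% of genes called), 0 of 5 in brown fat (5.41%), 0 of 8 in corpus callosum (0.0544%), 0 of 2 in gastrocnemius (0.0213%), 0 of 3 in heart (0.0549%) and 0 of 8 in hypothalamus/thalamus (0.574%). At an unadjusted p under 0.05 stood 3 of the 8 in corpus callosum, 1 each in brainstem and hypothalamus/thalamus and 0 in the remaining ones. In corpus callosum 8 of 8 smooth muscle genes and 5 of 11 further enterocyte genes stood there too. The share of all genes at that limit is not given here, so these counts say nothing particular about the members. DESeq2 called 0 in each of these 6 tissues.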

How the data were processed

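The authors deposited a table of estimated counts by Ensembl gene, left without scaling to library size, as the unequal library totals show. The authors also deposited FPKM values, scaled to length and to the library total. Total RNA was taken with the Qiagen miRNeasy kit, enriched for polyadenylated RNA and sequenced on Illumina HiSeq instruments, per the labels' protocols, and the submitters' processing notes list CASAVA 1.8.2. No source used here gives the aligner, counter, build, annotation or strandedness, so reads of overlapping genes on opposite strands cannot be told apart. Of the 38561 genes, 36639 (95.0%) have a symbol, and 16.6% of the count values are not whole. CPM are counts scaled to the plain library total, which ran from 28 to 48 M over 173 libraries. A floor of 3 counts equals 0.0625 to 0.107 CPM.

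Counts were rounded and tested per tissue in edgeR 4.0.16 (R 4.3.3, TMM, filterByExpr, robust quasi-likelihood, sex and genotype as terms; animal and tissue between depots), with Benjamini-Hochberg adjustment over all genes tested at 0.05. Alternatives were DESeq2 1.42.0, other scaling, no filter, a replicate block, the L code as a term, limma 3.58.1 on log2(FPKM + 1), libraries left out in turn and, added after seeing the data, without the 3 highest libraries. Fits were tested on simulated counts with known changes. P-values measure the spread between mice. Named with values are the 4 genes of each set with the highest mean FPKM around the intestine, any member called, up to 4 leading genes of each other list and up to 8 most alike, of which 1 is not reported here. The other genes named beside these were chosen after their values were seen. The 32 members and the 17 lists, with 198 of 199 genes measured, were chosen with earlier results of these data known. Promoters came from RefSeq on GRCm38.p6, and the build of the counts is not known to be the same.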

Additional observations from a re-analysis of the deposited data

Results flagged for a closer look

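For each tissue and genotype, the sums of both sets and, around the intestine, the written-out genes were checked for a library whose gap to the next was large against the range of its group. This marked 21 of 60 groups. The limit was Dixon's 95% critical value, under which chance marks about 1 in 20 independent groups; these groups share libraries and genes and are not independent. Around the intestine, wild-type female 2 stood apart in the pancreas sum with 28456 CPM (the others 6.09 to 7307), in Ctrb1 with 3643 CPM (0.0724 to 1016), in Cela1 with 3132 CPM (3.38 to 777), in Cela2a with 2933 CPM (0.0242 to 752) and in Pnlip with 3822 CPM (0.121 to 934). Q175 male 1 stood apart in its genotype in Cela2a with 9.79 CPM (the others 0 to 3.99) and in Pnlip with 11.9 CPM (0 to 4.88). Q175 male 2 stood apart in Apoa4 with 7.85 CPM (0.291 to 1.71).

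In the other tissues the pancreas sum stood apart in 8 groups. In gonadal fat these were Q175 female 1 with 289 CPM (the others 7.67 to 103) and wild-type male 1 with 613 CPM (8.38 to 14.9). In brown fat they were Q175 male 3 with 19.9 CPM (1.18 to 8.06) and wild-type male 2 with 6.96 CPM (1.22 to 3.02). In corpus callosum they were Q175 male 4 with 192 CPM (6.84 to 9.63) and wild-type female 4 with 26.2 CPM (4.89 to 14.6). The heart of Q175 male 4 had 6.41 CPM (0.230 to 0.456), and the hypothalamus/thalamus of Q175 female 2 had 5.24 CPM (2.35 to 3.64).

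The gut sum, which in brain, heart and skin is mostly Ckmt1, Lgals4 or Mttp, stood apart in 5 groups. Hearts had 83.6 CPM in Q175 female 2 (the others 51.2 to 66.5). Brainstem had 417 CPM in wild-type female 3 (330.2 to 364), hypothalamus/thalamus 273 CPM in wild-type male 2 (220.3 to 236) and corpus callosum 145 CPM in wild-type female 4 (76.2 to 107). Skin had a low value of 152 CPM in wild-type male 1 (192 to 215).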

How the results depend on the processing

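Without the 3 intestinal libraries highest in these genes, an alternative added after seeing the data, 4 fitted log2 fold changes of Q175 against wild type around the intestine reversed: Fabp2 2.62, Apoa1 2.13, Fabp1 0.50 and Apoa4 0.19. All 3 libraries were wild type and were left out by their level of these same genes, so an upward shift follows from that choice. The number of members called around the intestine was 2 with DESeq2. The cerebellum had 1 with DESeq2 and 0 with the replicate block, and skin had 0 with the replicate block. Gonadal fat had 2 with DESeq2, 2 with no filter on low counts, 2 in limma on log2(FPKM + 1), 2 without its 3 highest libraries and 0 with the L code as a term. Against brown fat 27 members were called with no filter and 9 with sex and genotype as terms in place of the animal. Against gonadal fat 10 were called with no filter. The share of all genes called under these settings is not given here. In the main fits it was already 82.1% against brown fat and 76.1% against gonadal fat, so these counts say nothing particular about the members. With no filter, genes at or near 0 enter the test. The cause was not tested otherwise.

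Leaving out 1 library at a time gave 0 to 2 calls in cerebellum, 1 to 2 in gonadal fat (2 without wild-type male 2), 4 to 7 against brown fat and 3 to 5 against gonadal fat; hippocampus and skin kept 1, and every other count was 0. Same-numbered Q175 and wild-type libraries around the intestine had deviations correlated between -0.45 and 0.73, with a median of 0.376 and 6 of 8 pairs over 0.1. Since not every pair passed 0.1 and no label ties the numbers to a litter or day, they were not taken as pairs. With the replicate block 0 members were called there and the median was -1.80. Of the named genes, Lct in hippocampus kept its call under all 22 alternatives, and Ckmt1 in skin lost it only with the replicate block, at a fold change of 0.45 (log2, edgeR adjusted p = 0.131). On the CPM, TMM and FPKM scales the pancreas sum of wild-type female 2 was 11.26, 11.61 and 11.23 (log2) over the median of the 13 other libraries, and the gut sum of wild-type male 4 was 8.33, 8.69 and 8.21. Levels near 3 counts, as for most members in most libraries, cannot show a difference at this depth.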
